A study of Homo sapiens with 60 samples.

Results

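Messenger RNA levels of 10 genes that tell the growth kinase complex mTORC1 whether nutrients are at hand were followed in SW1783, an established human astrocytoma cell line, across a vehicle and 8 herbal extracts at 3 doses each. The 10 are the Rag GTPase genes RRAGA, RRAGB, RRAGC and RRAGD, the folliculin complex genes FLCN, FNIP1 and FNIP2, and the stress-linked genes SESN2, DDIT4 and DEPTOR. They are 10 of the 60675 genes in the deposited table, and all 10 were among the 17680 genes that passed the filter on low counts. The set was selected by gene name with results of these data known: it was proposed because RRAGD stood highest after Coptidis and Bupleuri. Values of RRAGD in any extract, and of every one of the 10 genes after Coptidis and Bupleuri, are therefore given as descriptions. No p-value is given for them, and nothing is read from how many lay past the test threshold.

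Every group shared the cell line, the Leibovitz's L-15 medium and an exposure of 24 h. The vehicle was DMSO, at 0.1% per the labels of the samples and at 2% per the series text, in 3 libraries. Extracts were made with 70% ethanol, and their high doses were 500 µg/mL or, where it was lower, the concentration that cut viability by 20%. Coptidis Rhizoma was given at 14, 2.8 and 0.56 µg/mL, with 2 libraries per dose, and Bupleuri Radix at 210, 42 and 8.4 µg/mL, with 3 libraries per dose. Zizyphi Fructus (2 libraries per dose), Citri Unshius Pericarpium, Cimicifugae Rhizoma and Aconiti Lateralis Radix Preparata (3 each) as well as 2 formulas, Yijung-tang (2) and Banhasasim-tang (1), were given at 500, 100 and 20 µg/mL. Below, each extract is called by the first word of its name and its doses high, medium and low. The labels do not say whether the replicates of a group came from separate cultures. The p-values therefore speak of the spread among these libraries, and that spread may be technical.

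Rag GTPases work as pairs on the lysosome surface, RagA or RagB (from RRAGA and RRAGB) with RagC or RagD (from RRAGC and RRAGD), and recruit mTORC1 there when amino acids are present. Folliculin, together with FNIP1 or FNIP2, makes RagC and RagD hydrolyse GTP, which allows mTORC1 to phosphorylate the MiT/TFE transcription factors (TFEB, TFE3 and MITF) and keep them out of the nucleus. Those factors switch on lysosome genes, and RRAGD, RRAGC, FLCN and the FNIP genes are known targets of theirs. Sestrin 2 (SESN2) holds back the GATOR2 complex when leucine is scarce, and DDIT4 (also called REDD1) frees the TSC complex to switch off the mTORC1 activator Rheb. Both are known targets of ATF4, the factor of the amino acid and endoplasmic reticulum stress response. DEPTOR binds mTOR and inhibits it.

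On GRCh38, RRAGA lies at chr9:19049395-19050983, RRAGB at chrX:55717739-55758774, RRAGC at chr1:38838198-38859823 and RRAGD at chr6:89364636-89412270. FLCN spans chr17:17212212-17237188, FNIP1 chr5:131641714-131797063 and FNIP2 chr4:158769138-158908049. SESN2 is at chr1:28259527-28282491 and DDIT4 at chr10:72273920-72276036, and the position of DEPTOR is not printed. All 10 are annotated as protein-coding in GENCODE v29.

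The promoters of RRAGC, FNIP1 and RRAGB are printed because they hold the letters CACGTG, the core of the site that MiT/TFE factors bind and that other E-box proteins share. Sequences are from RefSeq (GRCh38.p14), 5′ to 3′ on the gene's strand, and capitals mark CACGTG. They run up to the gene start of the promoter entry and, for RRAGB, 13 bases past it. These entry starts lie inside the GENCODE positions given above, so the end of each printed sequence reaches into the gene as placed there. RRAGC is chr1:38859773-38860022 (minus strand), FNIP1 is chr5:131797018-131797267 (minus strand) and RRAGB is chrX:55717499-55717761 (plus strand).
RRAGC: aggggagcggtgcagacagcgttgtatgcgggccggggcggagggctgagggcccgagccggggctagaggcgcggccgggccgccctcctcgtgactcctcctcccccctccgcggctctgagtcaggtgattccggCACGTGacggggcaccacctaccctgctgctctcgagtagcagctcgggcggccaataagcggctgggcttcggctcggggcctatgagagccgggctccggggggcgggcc
FNIP1: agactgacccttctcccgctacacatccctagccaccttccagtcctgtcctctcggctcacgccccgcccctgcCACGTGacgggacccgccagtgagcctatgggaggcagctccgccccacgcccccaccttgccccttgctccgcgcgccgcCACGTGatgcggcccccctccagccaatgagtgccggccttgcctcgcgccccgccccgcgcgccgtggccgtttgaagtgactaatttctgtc
RRAGB: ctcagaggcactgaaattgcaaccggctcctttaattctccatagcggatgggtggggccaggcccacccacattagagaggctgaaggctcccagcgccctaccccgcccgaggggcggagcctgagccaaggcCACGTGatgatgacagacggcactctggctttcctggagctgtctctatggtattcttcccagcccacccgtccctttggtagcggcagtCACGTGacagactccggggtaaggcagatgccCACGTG
The windows searched ran from 250 bases before to 50 after the start, and an entry was found for 7 of the 10 genes, 2 entries in the case of FNIP2. Distances here are to the entry start and differ from those to the GENCODE start. CACGTG, which reads the same on both strands, began 112 bases before the entry start of RRAGC and 175 and 94 before that of FNIP1. For RRAGB it began 115 and 25 bases before and 7 after the entry start. It was in none of the windows of FLCN, FNIP2, SESN2 and DDIT4. Of 35116 promoter windows of this length, 7.26% held it, 0.664% at least 2 copies and 0.0940% at least 3. The letters TGATGNAA, the core of the ATF4-type element, were in none of these windows on either strand, against 3.62% of all windows. A match describes letters only, and its absence says nothing of a factor.

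Library totals of the 58 libraries used ran from 15996157 to 30990264 counts, and those of the vehicle from 15996157 to 20858002. The first replicates of high-dose Aconiti (11329310 counts) and of low-dose Yijung-tang stood apart from their group mates and were left out, which leaves 2 and 1 libraries in those groups. Counts of calls with both of them in the fit, which then shares a wider spread, are given beside the main ones. Vehicle libraries carry the name set D1, and extract libraries the sets 11 (Coptidis, Zizyphi), 12 (Citri, Cimicifugae), 13 (Bupleuri, Aconiti) and 14 (formulas), so set and treatment cannot be told apart in comparisons with the vehicle, while the doses of any single extract carry the same set name. The labelled astrocytoma origin was checked on markers: in the vehicle GFAP, AQP4 and ALDH1L1 were under 0.1 CPM, that is, counts scaled to a common library size, and S100B was at 0.190 CPM, while SOX9 stood at 73.1, GJA1 at 239 and CD44 at 2718 CPM. Markers of other cell types were mixed within each list. In the vehicle the oligodendrocyte list had MOG at 0 and MBP at 5.87 CPM, the microglia and leukocyte list AIF1 at 0, PTPRC at 13.4 and CD68 at 134 CPM, and the endothelium list CDH5 at 0 and PECAM1 at 0.594 CPM. The neuron list had SNAP25 at 32.1, SYT1 at 31.1 and RBFOX3 at 0.107 CPM, and the epithelium list KRT18 at 239.6, KRT8 at 19.1 and EPCAM at 0.0190 CPM. In RNA from a whole culture, fewer cells of a kind and less RNA per cell cannot be told apart.

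In the vehicle, levels divided by the summed exon length ran from RRAGA at 58.0 ± 1.17 CPM per kb (SD, n = 3) to RRAGD at 0.0658 ± 0.0220. DDIT4 followed RRAGA at 39.2 ± 0.627 CPM per kb, then RRAGC at 11.9 ± 0.368, FNIP1 at 7.79 ± 0.354, SESN2 at 5.21 ± 0.0580, RRAGB at 4.80 ± 0.201 and FLCN at 4.40 ± 0.179. FNIP2 stood at 1.76 ± 0.0800 and DEPTOR at 0.694 ± 0.0801 CPM per kb. Neighbours in this order lay further apart than their SDs, so that of the pairs RRAGA with RRAGB and RRAGC with RRAGD, the RagA and RagC genes held most of the transcripts in untreated cells. The exon length joins all annotated isoforms, which makes the scale approximate.

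RRAGD, the gene of the least abundant Rag, was at 0.455, 0.236 and 0.309 CPM in the vehicle libraries, which is 8, 5 and 5 counts. After high-dose Coptidis it was at 11.6 and 11.8 CPM (230 and 216 counts), and after high-dose Bupleuri at 5.81, 5.57 and 6.196 CPM. These were the highest groups of all, 35.1 and 17.6 times the vehicle mean, with log2 fold changes of 5.15 ± 0.24 (SE) and 4.13 ± 0.24. Next came the single library of high-dose Banhasasim-tang at 2.22 CPM. Medium-dose Coptidis held 0.825 and 0.810 CPM, and high-dose Yijung-tang 0.829 and 0.705 CPM, all above the vehicle libraries. Medium-dose Bupleuri, at 0.433, 0.503 and 0.567 CPM, overlapped the vehicle, as did its low dose and low-dose Coptidis (0.408 and 0.454 CPM). Apart from these high doses and Banhasasim-tang, RRAGD stayed between 0.114 and 0.829 CPM, where a library holds few counts of it, and neighbouring groups overlap.

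RRAGC, the close relative of RRAGD, was at 62.3, 62.5 and 59.1 CPM in the vehicle, at 159 and 151 CPM after high-dose Coptidis and at 138, 131 and 130 CPM after high-dose Bupleuri. The log2 fold changes were 1.35 ± 0.06 and 1.12 ± 0.05, and neither group overlapped the vehicle. RRAGC stayed the more abundant of both RagC-type genes, at 155 ± 5.46 CPM against 11.7 ± 0.138 CPM for RRAGD in high-dose Coptidis (SD, n = 2), whose exon lengths are nearly the same (5167 and 5072 bases). At the medium dose of Coptidis RRAGC was at 72.7 and 72.9 CPM, and at the medium dose of Bupleuri at 60.2, 64.6 and 64.6 CPM, within reach of the vehicle. Low doses were slightly under the vehicle, at 56.5 and 58.9 CPM for Coptidis and 55.2, 52.9 and 52.4 CPM for Bupleuri.

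The RagA-type genes did not share this pattern. RRAGA was at 90.4, 91.8 and 94.1 CPM in the vehicle, 82.6 and 80.2 CPM after high-dose Coptidis and 102, 109 and 113 CPM after high-dose Bupleuri. Low-dose Coptidis, at 82.4 and 84.9 CPM, was as far below the vehicle as the high dose. RRAGB was at 13.4, 12.5 and 13.4 CPM in the vehicle, 8.68 and 8.96 CPM after high-dose Coptidis and 17.2, 17.1 and 17.2 CPM after high-dose Bupleuri. Its log2 fold changes had opposite signs, -0.55 ± 0.09 and 0.39 ± 0.07, and neither group overlapped the vehicle.

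FLCN, which encodes folliculin, was also higher after both extracts: from 41.1, 44.5 and 43.4 CPM in the vehicle to 102 and 97.9 CPM after high-dose Coptidis and 89.6, 93.9 and 92.4 CPM after high-dose Bupleuri (log2 fold changes 1.23 ± 0.05 and 1.09 ± 0.05). FNIP1, its partner, was at 62.6, 64.2 and 58.8 CPM in the vehicle, at 165 and 145 CPM after Coptidis and at 120, 115 and 118 CPM after Bupleuri (1.34 ± 0.05 and 0.92 ± 0.05). The gene of the other partner differed between both extracts. FNIP2 was at 18.7, 20.1 and 18.6 CPM in the vehicle and 32.0, 29.01 and 29.9 CPM after high-dose Bupleuri, but at 18.6 and 15.8 CPM after high-dose Coptidis, where it overlapped the vehicle (log2 fold changes 0.66 ± 0.08 and -0.14 ± 0.10). FLCN counts are uncertain, because the gene overlaps MPRIP on the other strand (528 CPM in the vehicle, 262 after high-dose Coptidis, 477 after high-dose Bupleuri) and the readthrough gene AC055811.2 on its own strand (1.76, 7.06 and 4.27 CPM). How strand was treated in the counting is not given, so reads of FLCN and MPRIP may not be fully separated.

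**Figure D1:**
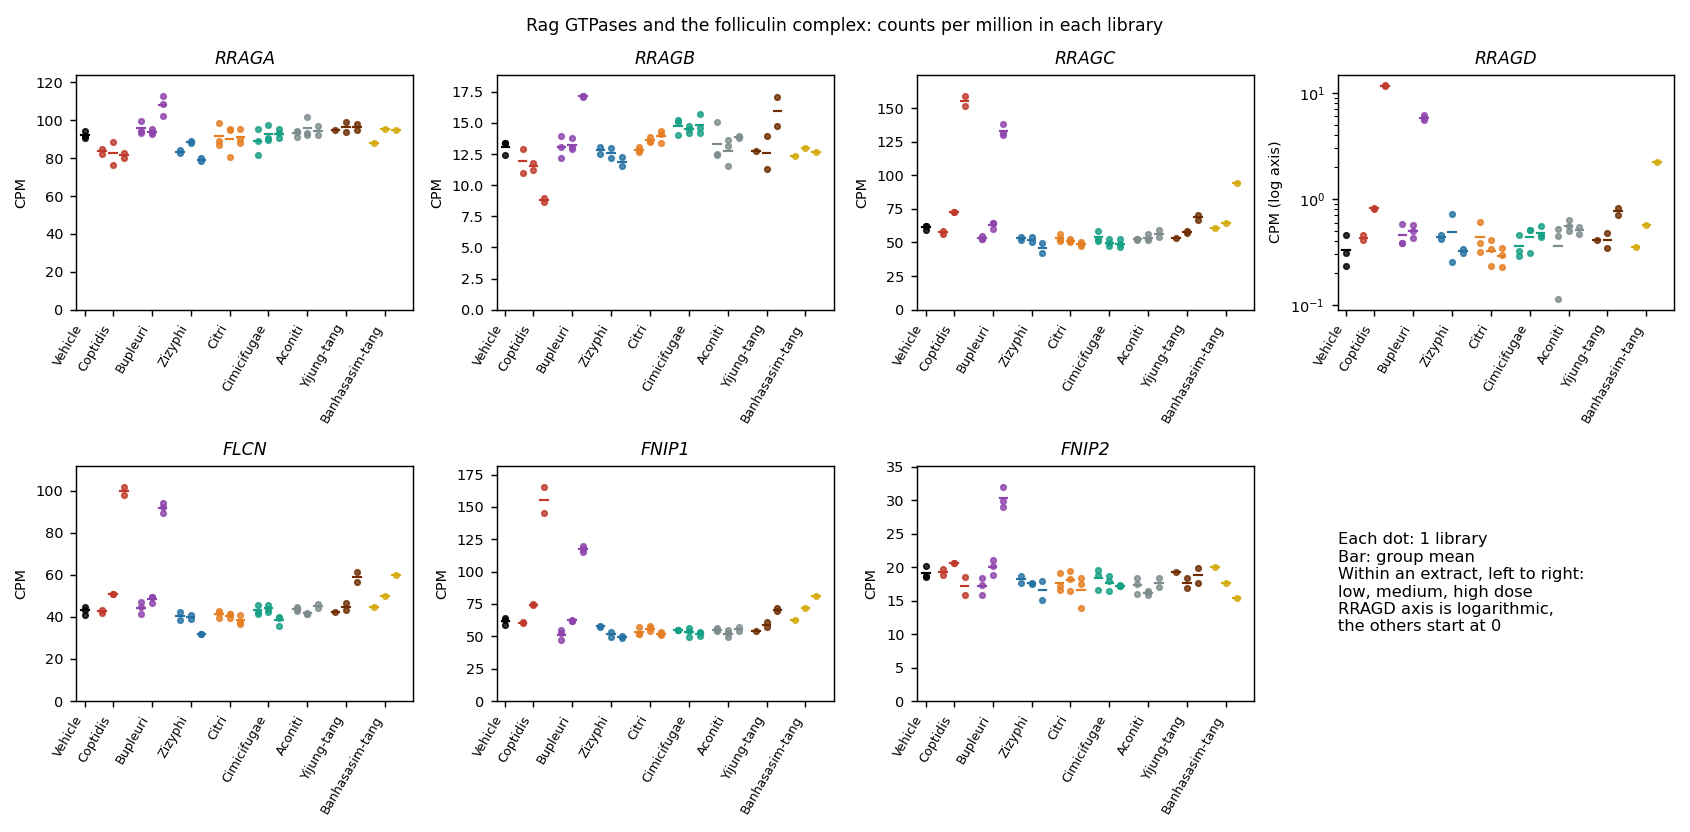
CPM of the 4 Rag GTPase genes and the 3 folliculin complex genes in each library (dots) with the group mean (bars), by extract and from low to high dose within an extract. The RRAGD axis is logarithmic and the others start at 0. RRAGC, RRAGD, FLCN and FNIP1 stand apart from all other groups in high-dose Coptidis and Bupleuri. RRAGA lies above all other groups in high-dose Bupleuri alone, narrowly (from 102.4 CPM, against up to 101.7 CPM in medium-dose Aconiti). RRAGB moves in opposite directions, and FNIP2 is high in Bupleuri alone.

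SESN2, DDIT4 and DEPTOR differed between both extracts. SESN2 was at 18.2, 17.8 and 17.9 CPM in the vehicle, 143 and 150 CPM after high-dose Coptidis and 34.7, 33.7 and 32.3 CPM after high-dose Bupleuri, with log2 fold changes of 3.04 ± 0.06 and 0.90 ± 0.06. DDIT4 was at 79.8, 80.1 and 82.1 CPM in the vehicle, 145 and 161 CPM after Coptidis and 44.6, 44.9 and 46.7 CPM after Bupleuri, so it was higher in the former and lower in the latter (0.94 ± 0.06 and -0.83 ± 0.06). DEPTOR, a weakly expressed gene, was at 1.82, 2.03 and 1.61 CPM in the vehicle, 0.353 and 0.875 CPM after Coptidis (7 and 16 counts) and 1.31, 1.37 and 1.33 CPM after Bupleuri. Both groups were below every vehicle library, at -1.57 ± 0.28 and -0.45 ± 0.20 on the log2 scale.

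The dose at which the genes moved also differed. Medium-dose Coptidis held SESN2 at 69.9 and 72.8 CPM and DDIT4 at 156 and 158 CPM, as high for DDIT4 as the high dose, while RRAGC, FLCN and FNIP1 were only a little over the vehicle there (log2 fold changes of 0.25 ± 0.06 for RRAGC, 0.24 ± 0.06 for FLCN and 0.27 ± 0.05 for FNIP1, against 1.99 ± 0.06 for SESN2 and 0.96 ± 0.06 for DDIT4). RRAGA, at 88.8 and 76.6 CPM, and RRAGB, at 11.8 and 11.3 CPM, were under every vehicle library at that dose. Medium-dose Bupleuri held SESN2 at 20.1, 20.6 and 20.8 CPM and DDIT4 at 71.5, 67.2 and 73.3 CPM, each just outside the vehicle. At the low dose of Coptidis SESN2 was at 19.1 and 20.1 CPM and DDIT4 at 71.8 and 71.3 CPM.

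Of the 9 genes other than RRAGD, 8 lay past the threshold (edgeR, adjusted p under 0.05) in high-dose Coptidis against the vehicle, where 66.6% of all genes did, and 7 against its low dose, where 65.6% did. For medium-dose Coptidis the number was 5, beside 25.9% of all genes. For high-dose Bupleuri it was 8 against the vehicle, beside 39.6% of all genes, and 8 against the low dose, beside 39.2%. The selection of the genes used these contrasts, so nothing is read from those counts. They were 7, 7, 2, 8 and 7 with both divergent libraries in the fit. The summed level of the microglia and leukocyte markers differed too, from between 143 and 150 CPM in the vehicle to between 264 and 276 CPM after Coptidis and between 248 and 272 CPM after Bupleuri. It was over the vehicle in every extract group, low doses included. Low-dose Coptidis held 180 to 184 CPM, low-dose Bupleuri 171 to 191, high-dose Cimicifugae 212 to 231 and high-dose Citri 202 to 206 CPM. A shift of the vehicle set and a shift after the extracts cannot be told apart here. The microglia and leukocyte sum rests on CD68, a lysosomal membrane protein, while AIF1 stayed at or under 0.0472 CPM and ITGAM at or under 0.215 CPM in the libraries used and PTPRC at or under 14.1 CPM. Other lists moved as well: the epithelium sum was between 253 and 264 CPM in the vehicle, between 162 and 166 after Coptidis and between 60.01 and 63.5 after Bupleuri. The astrocyte sum was between 345 and 349 CPM in the vehicle, between 297 and 320 after high-dose Coptidis and between 387 and 408 after high-dose Bupleuri. It was under the vehicle in every extract group but high-dose Bupleuri, and the epithelium sum was under the vehicle in every extract group. Low-dose Coptidis already held 313 to 317 CPM of the astrocyte list and 207 to 220 CPM of the epithelium list. In high-dose Coptidis the mesenchymal or glioma sum was 10217 CPM in both libraries, against 6971 to 7355 in the vehicle, and the oligodendrocyte sum was between 11.5 and 13.6 CPM, against 5.32 to 6.83. In high-dose Bupleuri these sums were 6437 to 6620 and 8.11 to 8.65 CPM. The neuron sum was between 62.6 and 64.3 CPM in the vehicle, between 72.9 and 76.5 after Coptidis and between 54.2 and 55.8 after Bupleuri. The part of any of these in the results was not tested.

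**Figure D2:**
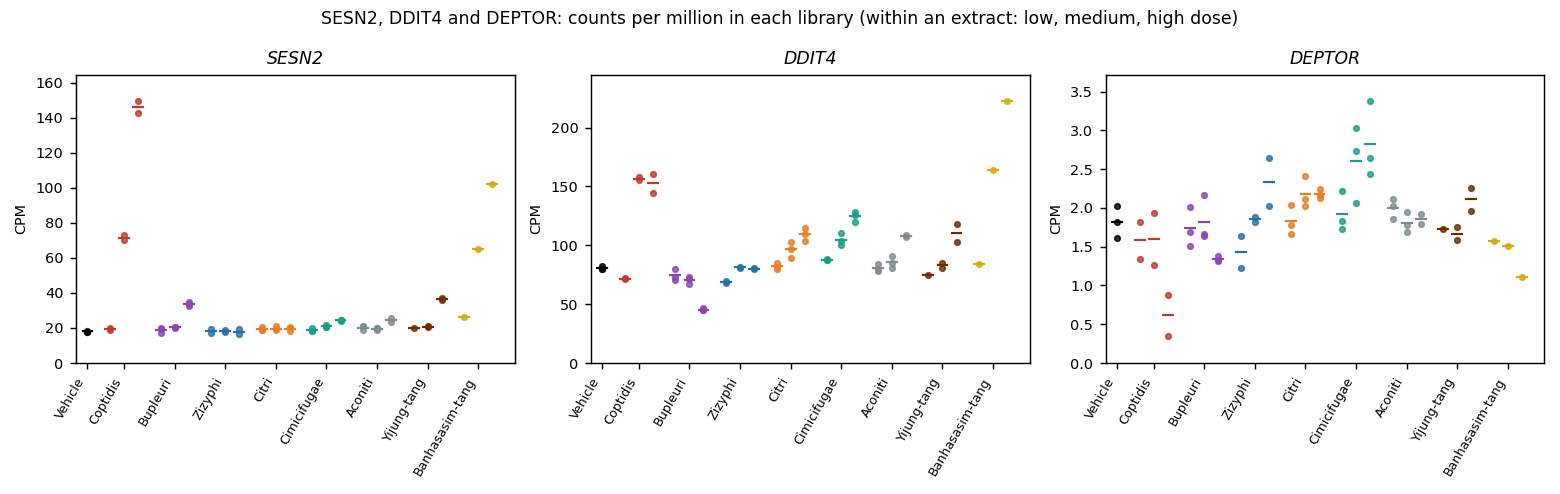
CPM of SESN2, DDIT4 and DEPTOR in each library (dots) with the group mean (bars), by extract and from low to high dose, on axes that start at 0. SESN2 reaches 143 and 150 CPM in high-dose Coptidis against 17.8 to 18.2 CPM in the vehicle, and DDIT4 is between 44.6 and 46.7 CPM in high-dose Bupleuri but over the vehicle at the high dose of most other extracts.

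The other 5 extracts with replicates allow tests on the 9 genes. In Yijung-tang, a formula, 6 of the 9 genes rose at the high dose against the vehicle and none fell, where 30.8% of all genes were called (median log2 fold change 0.20 over the 9 genes and 0.00 over all genes). SESN2 rose from 18.2, 17.8 and 17.9 CPM to 37.3 and 35.9 CPM (log2 fold change 1.02 ± 0.06, adjusted p = 2.21e-16). FLCN rose to 56.4 and 61.3 CPM (0.45 ± 0.05, adjusted p = 1.75e-08) and DDIT4 to 102 and 118 CPM (0.45 ± 0.06, adjusted p = 7.16e-08). RRAGB at 14.7 and 17.1 CPM (0.29 ± 0.08), FNIP1 at 71.7 and 69.7 CPM (0.18 ± 0.05) and RRAGC at 66.5 and 70.7 CPM (0.15 ± 0.06) changed least. Each of those 6 genes was above every vehicle library in both libraries. Against the medium dose, which shares the name set, the same 6 genes rose, beside 9.16% of all genes, with SESN2 at 0.82 ± 0.07, FLCN at 0.39 ± 0.06, DDIT4 at 0.41 ± 0.06, RRAGB at 0.35 ± 0.09, and RRAGC and FNIP1 both at 0.25 ± 0.06. The values of RRAGA, FNIP2 and DEPTOR did not pass the test, with log2 fold changes of 0.06 ± 0.06, -0.03 ± 0.09 and 0.20 ± 0.20 against the vehicle. Some calls ended when 1 library was left out, which in a group of 2 also lowers the power of the test. Without the second high-dose replicate the calls of RRAGB and RRAGC ended against the vehicle and against the medium dose. With each library left out in turn, their log2 fold changes against the vehicle stayed positive. They ranged from 0.17 to 0.38 for RRAGB and from 0.11 to 0.20 for RRAGC. The call of RRAGC also ended without the third vehicle replicate, that of FNIP1 without the first high-dose replicate (adjusted p = 0.0809), and against the medium dose RRAGB, RRAGC or FNIP1 was lost without 1 of the medium-dose replicates. The fit with both divergent libraries called 3 of the 9 genes against the vehicle (SESN2, FLCN and DDIT4) and SESN2 alone against the medium dose.

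After Cimicifugae the stress-linked genes were higher and some Rag and folliculin genes lower. At the high dose 3 of the 9 genes rose and 3 fell against the vehicle, beside 35.7% of all genes (median log2 fold change 0.01 over both the 9 genes and all genes). DDIT4 rose to 126, 120 and 128 CPM (0.62 ± 0.05, adjusted p = 1.11e-12), SESN2 to 24.0, 24.8 and 24.8 CPM (0.44 ± 0.06, adjusted p = 4.25e-07) and DEPTOR to 2.64, 3.38 and 2.44 CPM (0.61 ± 0.18, adjusted p = 0.00679). Those libraries lay above every vehicle library, and the DEPTOR value of 3.38 CPM was the highest of the 58 libraries. RRAGC fell to 48.9, 46.4 and 52.4 CPM (-0.32 ± 0.05), FNIP1 to 53.1, 52.4 and 50.4 CPM (-0.26 ± 0.05) and FLCN to 39.8, 39.5 and 35.6 CPM (-0.18 ± 0.05). Against its low dose, where 10.7% of all genes were called, DDIT4 (0.51 ± 0.05), SESN2 (0.39 ± 0.06) and DEPTOR (0.55 ± 0.17) rose and FLCN fell (-0.17 ± 0.05), and RRAGC and FNIP1 did not pass the test (-0.14 ± 0.05 and -0.08 ± 0.05). The DEPTOR call against the vehicle ended without the second high-dose replicate (adjusted p = 0.0718), and that of FLCN without the third high-dose or the second vehicle replicate. DEPTOR lost its call against the low dose without the second high-dose or the first or second low-dose replicate, and FLCN without the third replicate of either dose. DDIT4, SESN2 and DEPTOR were called with both divergent libraries in the fit against the vehicle and DDIT4 alone against the low dose.

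After Aconiti 2 of the stress-linked genes rose. With the 2 retained high-dose libraries, DDIT4 rose to 107 and 109 CPM (0.42 ± 0.06, adjusted p = 4.20e-07) and SESN2 to 25.8 and 23.5 CPM (0.45 ± 0.07, adjusted p = 1.78e-06) against the vehicle, and FNIP1 fell to 54.3 and 56.8 CPM (-0.16 ± 0.06, adjusted p = 0.0260). That made 3 of the 9 genes, beside 27.6% of all genes, with a median log2 fold change of 0.03 over the 9 genes and 0.00 over all. The same 2 genes rose against the low dose, DDIT4 by 0.42 ± 0.06 and SESN2 by 0.28 ± 0.06, beside 9.53% of all genes. The FNIP1 call ended without any of 4 libraries (either high-dose library, or the first or second vehicle replicate), and the SESN2 call against the low dose ended without the second high-dose replicate (adjusted p = 0.105). With the divergent first replicate kept, where DDIT4 stood at 177 CPM, SESN2 at 39.4, FLCN at 68.5 and RRAGC at 19.3 CPM, 4 genes were called against the vehicle (RRAGC, SESN2, FLCN and DDIT4) and 2 against the low dose.

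In Citri 1 gene rose and 3 fell at the high dose, beside 31.5% of all genes (median log2 fold change -0.02 over the 9 genes and 0.00 over all). DDIT4 rose to 104, 110 and 114 CPM (0.43 ± 0.05, adjusted p = 1.60e-08). RRAGC fell to 47.2, 50.1 and 49.1 CPM (-0.34 ± 0.05), FNIP1 to 51.6, 53.1 and 51.1 CPM (-0.26 ± 0.05) and FLCN to 36.4, 41.0 and 37.5 CPM (-0.18 ± 0.05), the last losing its call without the first high-dose or the second vehicle replicate. SESN2, at 18.1, 20.2 and 20.6 CPM, overlapped the vehicle. DDIT4 alone passed against the low dose (0.41 ± 0.05, adjusted p = 1.18e-07), beside 13.8% of all genes, and it kept its call without each library in turn and with both divergent libraries in the fit, where it was also the only one of the 9 genes called against the vehicle. Citri and Cimicifugae share a name set and a dose of 500 µg/mL, so that their high doses can be compared directly. DDIT4 was lower in Citri by 0.19 ± 0.05 (adjusted p = 0.0160) and SESN2 by 0.32 ± 0.06 (adjusted p = 2.54e-04) on the log2 scale, which made 2 of the 9 genes beside 6.67% of all genes. The DDIT4 call ended without the first or the third Cimicifugae or the first Citri replicate, and neither gene was called with both divergent libraries in the fit.

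After high-dose Zizyphi 4 of the 9 genes fell and none rose against the vehicle, beside 21.6% of all genes (median log2 fold change -0.22 over the 9 genes and 0.00 over all). FLCN fell to 31.8 and 31.8 CPM (-0.44 ± 0.06, adjusted p = 4.20e-07), RRAGC to 42.4 and 49.8 CPM (-0.42 ± 0.06, adjusted p = 2.29e-06), FNIP1 to 48.9 and 49.97 CPM (-0.33 ± 0.06, adjusted p = 2.75e-05) and RRAGA to 78.4 and 80.0 CPM (-0.22 ± 0.06, adjusted p = 0.0100). These libraries were all below the vehicle, and for FLCN they were the lowest of the 58. RRAGA was already under the vehicle at the low dose, at 82.6 and 84.1 CPM. Between the high and the low dose it did not pass the edgeR test (log2 fold change -0.07, adjusted p = 0.620). SESN2 (19.2 and 16.3 CPM) and DDIT4 (79.7 and 80.9 CPM) overlapped the vehicle. Against the low dose, beside 7.4% of all genes, FLCN (-0.35 ± 0.06, adjusted p = 2.44e-04) and FNIP1 (-0.22 ± 0.06) fell while DDIT4 (0.22 ± 0.07) and DEPTOR (0.69 ± 0.22) rose. That DDIT4 difference comes with a low dose that was under the vehicle, at 70.1 and 68.1 CPM. FLCN alone kept its call against the low dose without each library in turn, where 1 or 2 genes remained called, and the call of RRAGA against the vehicle ended without the second high-dose replicate (adjusted p = 0.100). In the fit with both divergent libraries FLCN alone was called against the vehicle and none of the 9 against the low dose.

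**Figure D3:**
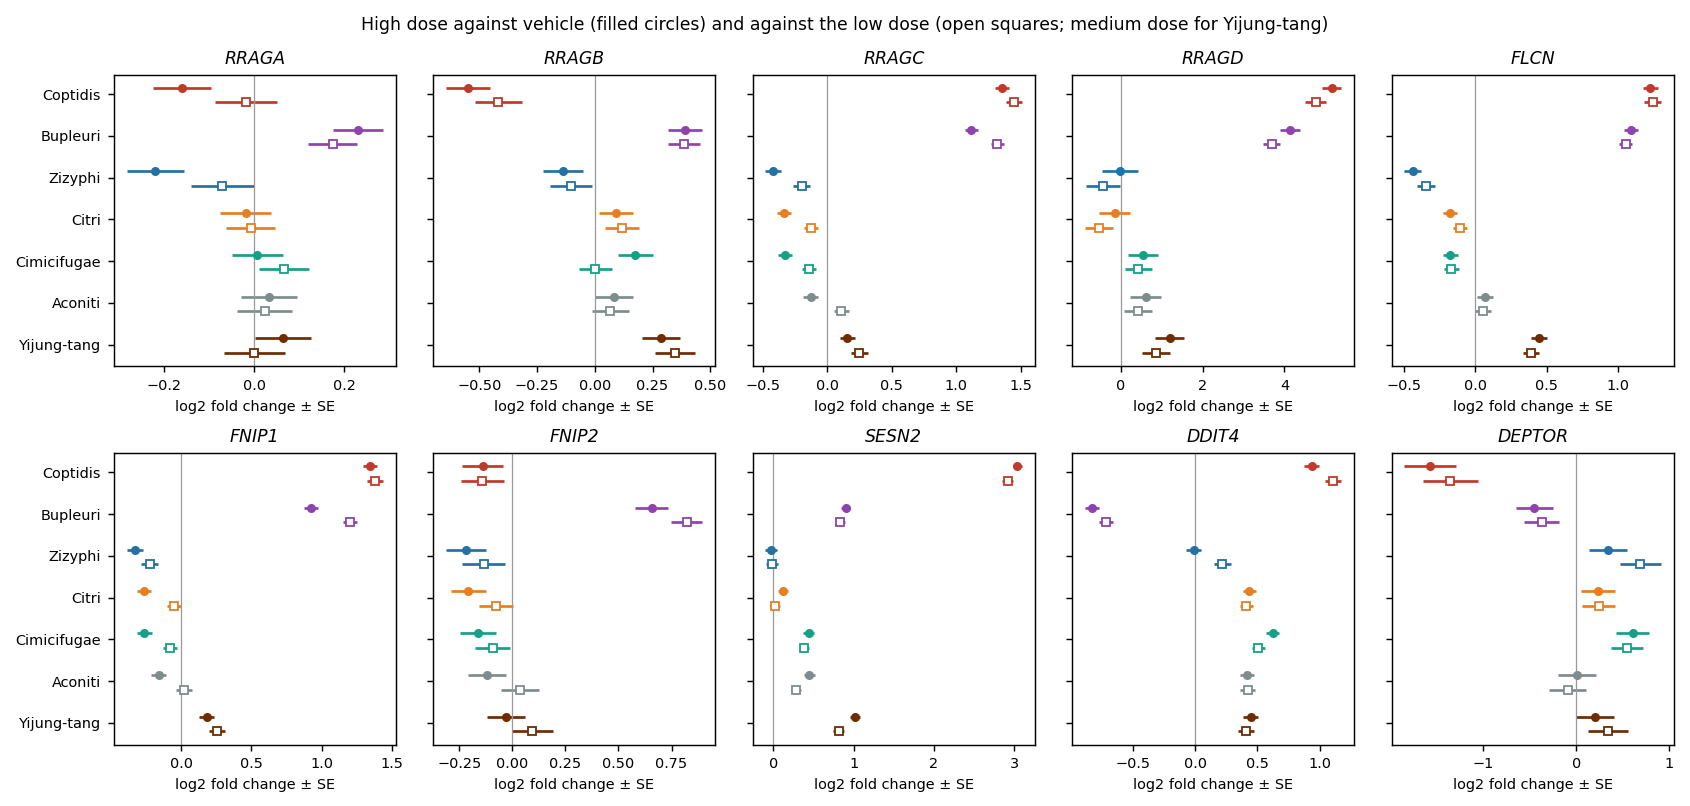
Log2 fold change with its SE for each of the 10 genes in 7 extracts, high dose against vehicle (filled circles) and high against low dose (open squares, the medium dose in Yijung-tang), with a separate x range for each gene. RRAGC, RRAGD, FLCN and FNIP1 lie far to the right in Coptidis and Bupleuri alone, and DDIT4 lies to the left in Bupleuri alone. Values of RRAGD, and of all genes in Coptidis and Bupleuri, are descriptions.

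RRAGC and FNIP1 were below the vehicle in most groups of these 5 extracts, also at doses where other genes did not differ. Over 14 comparisons with the vehicle (5 high, 5 medium and 4 low doses), RRAGC fell in 11 and rose in 1, and FNIP1 fell in 11 and rose in 1. At the low doses RRAGC fell in all 4 of Zizyphi, Citri, Cimicifugae and Aconiti, by between 0.19 and 0.24 on the log2 scale, and FNIP1 in 3 of the 4. In high-dose against low-dose comparisons of the same extracts RRAGC was called in none of 4 and FNIP1 in 1. Since vehicle libraries form a name set of their own, a shift of the vehicle set and a shift after the extracts cannot be told apart for these genes. Counted over genes, 14 of 45 medium-dose tests were called, beside 13.7% of all genes for Zizyphi, 17.9% for Citri, 31.8% for Cimicifugae, 26.2% for Aconiti and 15.3% for Yijung-tang. DDIT4 rose at the medium dose of Cimicifugae (110, 104 and 99.9 CPM, 0.37 ± 0.05) and Citri (89.3, 96.9 and 103 CPM, 0.25 ± 0.05), between the values of their low and high doses. SESN2 rose at the medium doses of Cimicifugae (0.20 ± 0.06) and Yijung-tang (0.20 ± 0.07, adjusted p = 0.0436), the latter call ending without any 1 of the 5 libraries. Low doses gave 8 of 36 tests, beside 11.8% of all genes for Zizyphi, 16.1% for Citri, 20.8% for Cimicifugae and 20% for Aconiti, all of them falls of RRAGC, FNIP1 or, in Zizyphi, DDIT4. Without the second vehicle replicate the low-dose number was 5, the calls of RRAGC in Cimicifugae and of FNIP1 in Cimicifugae and Aconiti ending, and the Zizyphi calls of RRAGC and DDIT4 ended without the third low-dose replicate. At the medium dose those of FNIP1 in Citri and DEPTOR in Cimicifugae each ended without any of 4 libraries, that of FNIP2 in Aconiti without any of 3, and both in Zizyphi without the third medium-dose replicate. Also with both divergent libraries in the fit it was 0 and the medium-dose number 1.

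Banhasasim-tang, a formula with 1 library per dose, was described and not tested, and intervals here are exact 95% binomial ones for counting error only. At its high dose SESN2 was at 102 CPM (98.6 to 106), DDIT4 at 223 CPM (217 to 228), RRAGC at 93.9 CPM (90.4 to 97.6), FNIP1 at 81.1 CPM (77.8 to 84.5) and FLCN at 59.8 CPM (56.9 to 62.7). All of these were over every vehicle library, and DDIT4 was the highest of the 58 libraries. RRAGD was at 2.22 CPM (1.71 to 2.85, 62 counts), and FNIP2 was under the vehicle at 15.4 CPM (14.0 to 17.0), as was DEPTOR at 1.11 CPM (0.756 to 1.58). The medium dose already held SESN2 at 65.3 CPM and DDIT4 at 164 CPM, with RRAGC at 64.6 and RRAGD at 0.573 CPM. That order of doses resembles the one in Coptidis, with no replicate to check it. Low-dose Yijung-tang, left with 1 library, held SESN2 at 20.0 CPM (18.3 to 21.7), DDIT4 at 74.5 CPM (71.2 to 77.8) and RRAGC at 53.2 CPM (50.5 to 56.0).

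Of 51 further genes of the pathway, listed by complex and outside the 10, 50 were tested. Like the lists further below, this one was chosen with earlier results of these data known, so its tests give no independent support. In high-dose Coptidis 27 rose and 9 fell against the vehicle (median log2 fold change 0.28, and -0.02 over all genes), and 32 rose and 7 fell against the low dose. The share called was 72% against the vehicle and 78% against the low dose, beside 66.6% and 65.6% of all genes, so it was near the background. Against the vehicle 5 of 6 genes rose in the TSC and Rheb group, 4 of 5 in GATOR2, 4 of 6 among mTORC1 substrates, 4 of 6 among amino acid transporters and 2 of 3 MiT/TFE factors. Of all 17680 genes, 6010 rose there. The remaining groups are not listed here, and no group was tested as a set. No pattern among the complexes is therefore read from the groups named. SLC3A2 and SLC7A5, the paired subunits of the leucine transporter, went from 148 to 795 CPM (2.44 ± 0.05, adjusted p = 3.93e-36) and from 168 to 797 CPM (2.27 ± 0.04, adjusted p = 2.07e-37), and EIF4EBP1, a translation repressor that mTORC1 phosphorylates, from 65.9 to 211 CPM (1.70 ± 0.08). The largest falls were those of EIF4EBP2, the relative of EIF4EBP1 (-1.10 ± 0.05), and of SESN3, a sestrin that went the opposite way from SESN2 (10.3 to 4.83 CPM, -1.08 ± 0.12), while SESN1 did not pass the test (0.18 ± 0.10). At the medium dose of Coptidis SLC7A5 (1.62 ± 0.04), SLC1A5, a glutamine transporter (0.75 ± 0.04), and EIF4EBP1 (0.72 ± 0.08) already rose. Of the 50 genes, 23 were called against the vehicle and 20 against the low dose with both divergent libraries in the fit.

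In high-dose Bupleuri 25 of the 50 genes rose and 12 fell against the vehicle (median 0.12, and 0.00 over all genes), and 20 rose and 9 fell against the low dose. The share called was 74% and 58%, beside 39.6% and 39.2% of all genes. Ragulator, the anchor of the Rag proteins on the lysosome, was counted with SLC38A9, an arginine sensor. Of these 6 genes 5 rose against the vehicle and 4 against the low dose. Of all 17680 genes, 3569 and 3638 rose in these comparisons. In Coptidis the counts for the 6 genes were 3 and 5, and the difference between the extracts was not tested. The other groups are not listed here for Bupleuri, so these 6 genes cannot be set against the rest of the list. SLC36A1, a lysosomal amino acid transporter (36.2 to 67.6 CPM, 0.90 ± 0.06), SLC3A2 (0.83 ± 0.05) and TSC1, a subunit of the TSC complex (0.71 ± 0.05), rose most, and DDIT4L, the relative of DDIT4, fell most (15.1 to 5.52 CPM, -1.46 ± 0.09), followed by SESN3 (-0.68 ± 0.09). DDIT4 was lower there too, but in other extracts the signs differed: DDIT4L fell in high-dose Yijung-tang (-1.13 ± 0.10), Cimicifugae (-1.02 ± 0.09), Citri (-0.80 ± 0.09) and Aconiti (-0.67 ± 0.09), where DDIT4 rose. With both divergent libraries in the fit, 10 of the 50 were called against the vehicle and 9 against the low dose.

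In the other extracts fewer of the 50 genes passed. The share called against the vehicle was 38% in Yijung-tang beside 30.8% of all genes, 38% in Aconiti beside 27.6%, 40% in Cimicifugae beside 35.7%, 32% in Citri beside 31.5% and 28% in Zizyphi beside 21.6%, so that in Citri and Cimicifugae it was near the background. High-dose Yijung-tang had 12 rises and 7 falls against the vehicle, among them SLC7A5 (0.81 ± 0.04), SLC3A2 (0.66 ± 0.05) and the arginine sensor CASTOR1 (0.68 ± 0.22), and 10 rises and 2 falls against the medium dose. Aconiti had 9 and 10 (4 and 3 against the low dose), with SLC7A5 at 0.50 ± 0.04. Cimicifugae had 7 and 13 (5 and 5), with ULK1, the autophagy kinase that mTORC1 restrains, at 0.46 ± 0.05. Citri had 4 and 12 (2 and 7), and Zizyphi 1 and 13 (1 and 6), with LAMTOR3, a Ragulator subunit, at -0.50 ± 0.08 and SLC38A2, an amino acid transporter, at -0.42 ± 0.05. Between Citri and Cimicifugae 6 of the 50 were lower in Citri and none higher, beside 6.67% of all genes called. Against the lower dose the share of all genes called was 9.16% in Yijung-tang, 9.53% in Aconiti, 10.7% in Cimicifugae, 13.8% in Citri and 7.4% in Zizyphi. With both divergent libraries in the fit, the calls among the 50 against the vehicle were 5 in Yijung-tang, 22 in Aconiti, 5 in Cimicifugae, 2 in Citri and 1 in Zizyphi. The counts were also sensitive to single libraries: that of Yijung-tang against the medium dose fell from 12 to between 5 and 7 without any 1 of its 4 libraries, that of Zizyphi against the low dose from 7 to 2 without the third high-dose and to 4 without the third low-dose replicate, and that of Citri against the vehicle from 16 to 10 without the first vehicle replicate. Against the low dose the number was 5 without the second high-dose replicate in Citri (9 with it), 6 without that in Cimicifugae (10 with it) and 4 without the third in Aconiti (7 with it), and against the vehicle it was 12 without the second in Aconiti (19 with it).

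**Figure D4:**
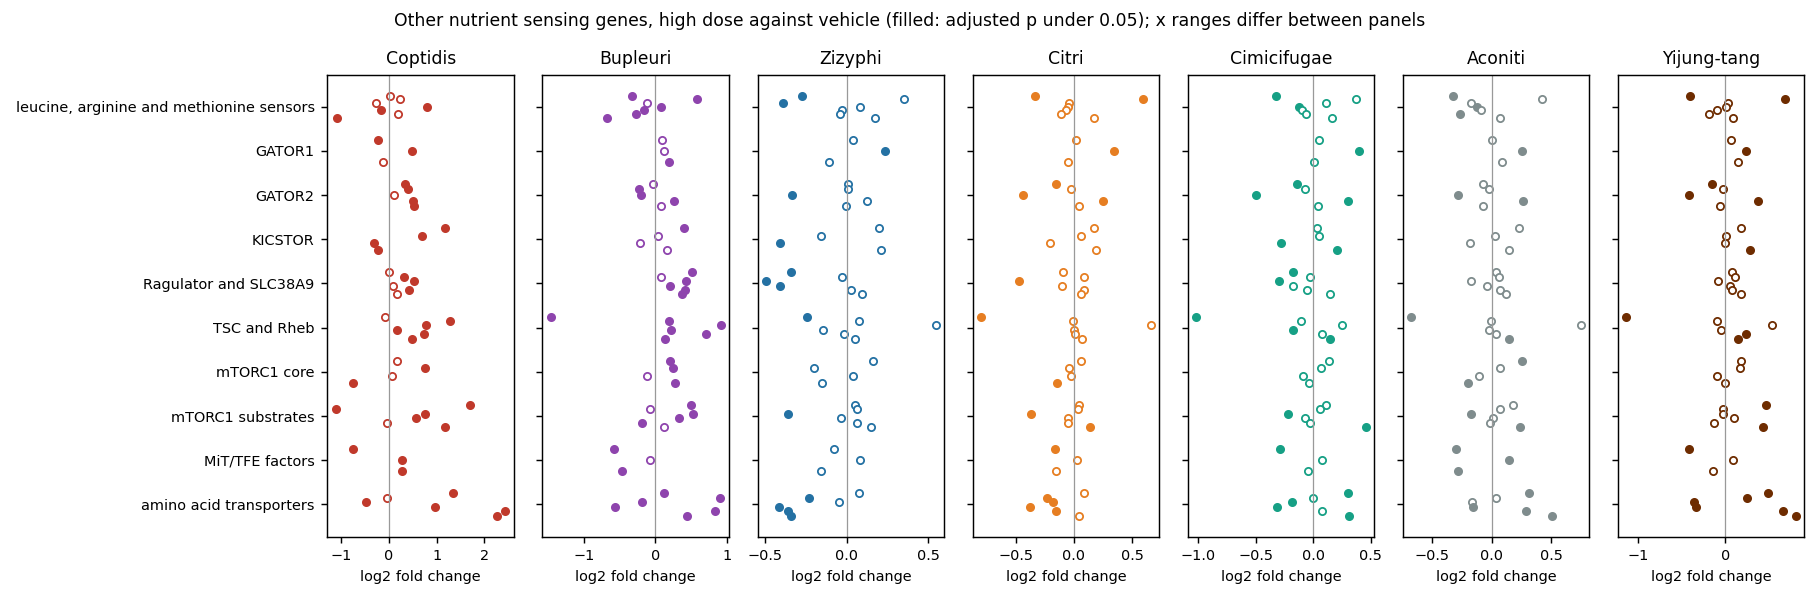
Log2 fold change of 50 other nutrient sensing genes, high dose against vehicle, for 7 extracts and by complex, filled where edgeR's adjusted p was under 0.05. The x range differs between panels. Coptidis and Bupleuri reach beyond 1 in size and have most points to the right of 0. Yijung-tang and Cimicifugae also reach beyond 1 in size, through the fall of DDIT4L. Zizyphi stays within about 0.6 and has most filled points to the left.

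The genes of the MiT/TFE factors moved little or fell. TFE3, at 136 CPM in the vehicle, rose in high-dose Coptidis (0.29 ± 0.05) and did not pass the test in Bupleuri (-0.08 ± 0.04). TFEB rose in Coptidis (0.28 ± 0.08) and fell in Bupleuri (15.3 to 11.0 CPM, -0.47 ± 0.07), and MITF fell in both (-0.75 ± 0.07 and -0.58 ± 0.06). Levels of their messenger RNA say nothing of where the proteins were. A list of 12 lysosome and autophagy genes known as MiT/TFE targets was counted beside them. All 12 rose in high-dose Bupleuri (median 0.51), where 39.6% of all genes were called, 10 rose and 2 fell in Coptidis (median 0.76, beside 66.6%), and 7 rose in Yijung-tang (median 0.24, beside 30.8%). The medians over all genes were 0.00, -0.02 and 0.00. GPNMB, a membrane glycoprotein of lysosomes, went from 24.5 to 101 CPM in Bupleuri (2.05 ± 0.05) and rose by 1.51 ± 0.06 in Coptidis, SQSTM1, an autophagy receptor, rose by 1.94 ± 0.03 and 1.49 ± 0.04, and WIPI1, an autophagosome protein, by 1.92 ± 0.06 in Coptidis. Zizyphi, where RRAGC, FLCN and FNIP1 fell, had 8 falls and 1 rise in this list (median -0.17, beside 21.6% of all genes), with SQSTM1 at -0.51 ± 0.04. The same 3 genes fell in Cimicifugae and Citri, and there the list had 4 rises and 1 fall (median 0.06, beside 35.7%) and 1 rise and 1 fall (median 0.02, beside 31.5%). Aconiti had 6 rises and 1 fall (median 0.07, beside 27.6%), with none of the 3 genes higher. With both divergent libraries in the fit the calls of the list were 11 rises in Bupleuri, 9 rises and 1 fall in Coptidis, 4 rises in Yijung-tang, 1 rise and 1 fall in Zizyphi, 5 rises and 2 falls in Aconiti, 1 rise in Cimicifugae and 1 in Citri.

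A list of 10 genes of the ATF4 stress response was counted beside SESN2 and DDIT4. All 10 rose in Coptidis at the high dose (median 3.04) and at the medium dose (median 1.65), where SESN2 and DDIT4 were already high, beside 66.6% and 25.9% of all genes called and all-gene medians of -0.02 and 0.00. DDIT3, a pro-apoptotic factor, went from 25.2 to 639 CPM at the high dose (4.68 ± 0.07), and TRIB3, a pseudokinase, from 19.2 to 437 CPM (4.53 ± 0.06). In Yijung-tang 9 of the 10 rose (median 0.86, beside 30.8% of all genes called), in Aconiti 8 (median 0.36, beside 27.6%) and in Cimicifugae 8 (median 0.25, beside 35.7%), the extracts in which SESN2 rose too, and none fell. In Citri, where SESN2 did not pass the test, 1 rose and 1 fell (beside 31.5%), and in Zizyphi none rose and 4 fell (beside 21.6%). The all-gene median was within 0.01 of 0 in each. Bupleuri had 8 rises and 1 fall (median 0.59, beside 39.6% of all genes and an all-gene median of 0.00), led by PPP1R15A, the stress-response phosphatase subunit, at 1.67 ± 0.04, together with a lower DDIT4. The rises with both divergent libraries in the fit were 9 and 8 in high-dose and medium-dose Coptidis, 7 in Yijung-tang, 5 in Aconiti, 2 in Cimicifugae and 6 in Bupleuri. In that fit 1 of the 10 genes fell in high-dose Aconiti.

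Across the 21 groups with replicates, genes whose mean log2 CPM followed RRAGD closely included C12orf49 (Pearson r = 0.98), LHFPL2 (0.98), WASHC2C (0.98) and GNPDA1 (0.97). GNPDA1, an enzyme of amino sugar breakdown, was at 49.3 CPM in the vehicle, 170 in high-dose Coptidis and 167 in high-dose Bupleuri. Among the 10 genes, RRAGC had an r of 0.97 with RRAGD, FNIP1 of 0.96 and FLCN of 0.94, while DDIT4 had 0.09 and RRAGB -0.26. SESN2 was followed most closely by TRIB3 (0.99), KCNG1 (0.99), SHMT2 (0.99), MARS (0.99) and SLC7A5 (0.98), of which SHMT2 is a mitochondrial serine enzyme and MARS the methionine tRNA synthetase. DDIT4 had no partner as close: TCIM (0.85), IL20RB (0.84), TLCD2 (0.83), EML6 (0.82) and ERRFI1 (0.82) came first, and its r with SESN2 was 0.58. These values describe 21 group means that share the vehicle, the name sets and the high-dose Coptidis and Bupleuri groups, which lie far from the rest.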

How the data were processed

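RNA was sequenced from 60 libraries of SW1783 cells, with a kit that keeps strand information, per the labels' protocols. The authors deposited expected counts per gene. FastQC 0.11.9, Trim Galore 0.6.5, STAR 2.7.3a, RSEM 1.3.3 and hg38 are named in the submitters' processing notes, and neither the annotation nor the strand setting of the counting is given there or in the labels. Of the deposited expected counts 9.18% were not whole, and all were rounded to whole numbers. Gene positions came from GENCODE v29, where 57055 of the 60675 genes, with 99.97% of all counts, were found.

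The 10 genes and all lists were chosen with earlier results of these data known. Genes were kept by edgeR's filterByExpr at a minimum count of 10, which left 17680, and scaled by TMM. One quasi-likelihood model (edgeR 4.0.16, R 4.3.3) covered 54 libraries in 21 groups, and 28 comparisons were drawn from it, with Benjamini-Hochberg adjustment over all genes tested and a threshold of 0.05. Groups with 1 usable library were described with exact Clopper-Pearson intervals of 95%, computed in SciPy 1.17.1. All 10 genes are named. From each list, up to 3 called genes with the largest rise and up to 3 with the largest fall per comparison are named, at a mean of at least 1 CPM, together with TFEB, TFE3, MITF, SESN1 and SESN3. For RRAGD, SESN2 and DDIT4, the 5 genes with the highest Pearson correlation over the 21 groups were chosen, of which 1 is not reported here. The script was tested on simulated data. Alternatives were another scaling, DESeq2 1.42.0, other filters, both divergent libraries kept, a replicate block, fewer libraries in the fit and each library left out.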

Additional observations from a re-analysis of the deposited data

Results flagged for a closer look

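For several of the 10 genes, every high-dose library lay above every low-dose library in some extracts and below in others. These differences between extracts were not tested. Groups of 2 or 3 libraries can separate in this way by chance, and the share over all genes was not counted. Nothing is therefore read from the number of pairs. Not all separations passed the edgeR test: RRAGA (adjusted p = 0.620) and RRAGB (0.582) in Zizyphi and RRAGB (0.310) and DEPTOR (0.409) in Citri did not. FLCN in Zizyphi (2.4e-04) and DDIT4 in Citri (1.18e-07) did. Opposite sides were seen for RRAGA in 1 pair of extracts, above in Bupleuri and below in Zizyphi. For FNIP2 it was 1 pair, above in Bupleuri and below in Coptidis. RRAGB gave 4 pairs, above in Citri and Bupleuri and below in Coptidis and Zizyphi. RRAGC gave 6 pairs, above in Coptidis, Bupleuri and Aconiti and below in Zizyphi and Citri. RRAGD gave 2 pairs, above in Coptidis and Bupleuri and below in Zizyphi. In Zizyphi that is 0.308 and 0.341 CPM against 0.422 and 0.461 CPM, where a library holds few counts of RRAGD. FLCN and FNIP1 gave 4 pairs each, above in Coptidis and Bupleuri and below in Zizyphi and Cimicifugae. DDIT4 gave 5 pairs, above in Coptidis, Zizyphi, Citri, Cimicifugae and Aconiti and below in Bupleuri. DEPTOR gave 6 pairs, above in Zizyphi, Citri and Cimicifugae and below in Coptidis and Bupleuri.

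The libraries left out also held values above every vehicle library. In the first replicate of high-dose Aconiti, RRAGA was at 99.5 CPM, FLCN at 68.5 CPM, SESN2 at 39.4 CPM and DDIT4 at 177 CPM. In the first replicate of low-dose Yijung-tang, RRAGA was at 109 CPM, RRAGB at 14.8 CPM, RRAGD at 0.909 CPM, SESN2 at 20.2 CPM and DDIT4 at 84.1 CPM.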

How the results depend on the processing

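Keeping both divergent libraries changed the counts most: calls over all genes and the 28 comparisons went from 118807 to 33246. Of the 9 genes tested, the number called against the vehicle at the high dose went from 4 to 1 in Zizyphi and Citri and from 6 to 3 in Cimicifugae and Yijung-tang, from 14 to 1 over medium doses and from 8 to 0 over low doses. Against the low dose it went from 4 to 0 in Zizyphi and to 1 in Cimicifugae, in Yijung-tang against the medium dose from 6 to 1, and between Citri and Cimicifugae from 2 to 0. Among the 50 other genes the number went from 36 to 23 in Coptidis, 14 to 1 in Zizyphi, 16 to 2 in Citri, 20 to 5 in Cimicifugae, 37 to 10 in Bupleuri and 19 to 5 in Yijung-tang. Against the low dose it went from 39 to 20, 7 to 0, 9 to 1, 10 to 1 and 29 to 9 in the first 5 of these, and in Yijung-tang against the medium dose from 12 to 0. TFEB in high-dose Aconiti went from -0.29 to 0.039 on the log2 scale. The fit then covers a wider spread in 57 libraries, and whether the 2 libraries differ for a technical reason was not tested.

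With only the libraries compared in the fit, Cimicifugae against its low dose gave 2 of the 9 genes in place of 4. Leaving out 1 library gave 5 to 9 low-dose calls (5 without vehicle replicate 2), 1 to 2 genes for Zizyphi, for Aconiti against their low doses and for Citri against Cimicifugae. For the 50 genes it gave 10 to 15 in Citri and 12 to 19 in Aconiti against the vehicle, and 2 to 9 in Zizyphi, 5 to 8 in Citri, 6 to 10 in Cimicifugae, 4 to 6 in Aconiti and 5 to 7 in Yijung-tang against the lower dose. Calls over all genes were 118328 with DESeq2 size factors, 108214 with DESeq2's test, 110756 with no filter, 118447 at a minimum count of 30 and 117007 with only the libraries compared.

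Nothing in the labels says that replicate numbers in the titles mark a shared culture or batch, and they were not treated as pairs. Same-numbered libraries of different groups had deviations correlated at -0.076 to 0.140 (median 0.004, against -0.002 for other numbers), which does not reach 0.1 in every pair. Within a name set the medians were 0.015 and -0.009, and 30 of 54 libraries lay closest to their own number, which is a hint of pairing from the data and not from the design. With the replicate block, calls over all genes were 121412, and the 9 genes gave 4, 5, 6, 3 and 6 calls at the high doses of Zizyphi, Citri, Cimicifugae, Aconiti and Yijung-tang, 14 over medium and 9 over low doses. RRAGD, with 2 to 62 counts outside high-dose Coptidis and Bupleuri, and DEPTOR are limited by depth.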
